A study of Homo sapiens with 2 samples.

Results

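The genes described here encode the intraflagellar transport (IFT) complexes and the BBSome with its partners, the 2 cargo systems of the cilium. The list holds 36 genes. Of these, 35 had a probe set that names 1 gene, and 34 were measured, with a signal of 100 or more on at least 1 of the 2 arrays, among 12754 genes measured in all. Of the 35, 32 carried the listed symbol in the probe annotation and 3 carried a newer symbol for the same gene: HSPB11 (IFT25), TTC30A (IFT70A) and TTC30B (IFT70B). The probe set of TTC21B, the retrograde subunit IFT139, also names another gene and was not analysed here. BBS5 was the member under the limit of 100, at 48.6 in control and 65.3 with the miR-129-3p oligo, and the nearest members above it were TTC30A, IFT140 and TTC30B.

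Both groups were hTERT-RPE1 cells, an established human line from retinal pigment epithelium that carries telomerase and can grow a primary cilium. The control group received a control oligo and the other a miR-129-3p oligo, both with a lipid transfection reagent, in DMEM/F-12 medium with 10% fetal bovine serum and hygromycin B. RNA was taken 72 h later, and 100 ng was labelled for an Affymetrix 3' expression array. Each group held 1 array, so no value has a replicate error, no difference was tested, and each difference compares these 2 arrays rather than the conditions. The sequence of the control oligo and the share of ciliated cells are not in the sources used here. The series title places the study in the control of cilium assembly by this microRNA through CP110, a centriole-capping protein, and actin.

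A cilium is built and kept by trains that run along its axoneme. IFT-B trains carry tubulin and other cargo to the tip with kinesin-2, IFT-A returns them to the base with dynein-2 and also admits membrane proteins, and the BBSome rides on the trains and moves receptors in and out of the ciliary membrane. In retinal pigment epithelial cells, as in most cell types, the primary cilium forms when cells leave the cell cycle and is taken down before division.

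The agent is printed because a microRNA finds its targets mainly through its seed, bases 2 to 8, given in capitals. The labels name miR-129-3p without saying which of the 2 human genes its sequence follows. Both mature forms, from RefSeq on GRCh38.p14, are 22 bases long, share the seed and differ at 1 position, base 20.
hsa-miR-129-1-3p (chr7:128207920-128207941, plus strand): aAGCCCUUaccccaaaaaguau
hsa-miR-129-2-3p (chr11:43581450-43581471, plus strand): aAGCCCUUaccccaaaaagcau

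As a set, the IFT and BBSome genes differed little between the arrays. With miR-129-3p, 5 of the 34 measured members were at least 1.5-fold higher (ARL6, WDR19, IFT57, TTC30B and IFT122), 1 was at least 1.5-fold lower (ARL3), and 28 lay within 1.5-fold. A difference is given on the scale of log2(signal + 16), miR-129-3p minus control, where 1.5-fold is 0.58. The members' shares, 14.7% higher and 2.94% lower, stand beside 17.3% and 10.8% of all genes measured, so the share higher was near the background and the share lower was below it. The share within 1.5-fold was 82.4% of members and 71.9% of all genes. The members' median difference was 0.06, beside 0.03 for all genes, and their median size of difference regardless of sign was 0.26, beside 0.32. Their differences ran from -0.64 to 1.32. The range of all genes, -7.82 to 7.90, includes the members and widens with the number of genes, so the 2 ranges cannot be compared. At a limit of 2-fold, 1 member was higher and 0 were lower, with 7.83% and 4.56% of all genes. The count of 5 higher members became 3 after quantile normalization, with 64 added in place of 16, or without probe sets ending in _x_at or _s_at. The count of 1 lower member became 2 after quantile normalization and 0 with the mean of all probe sets.

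**Figure D1:**
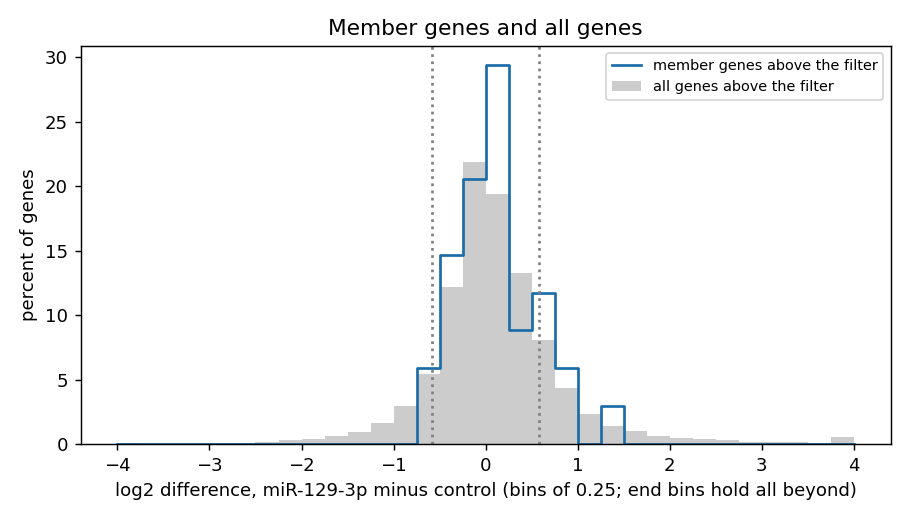
Percent of genes (vertical axis) in bins of the log2 difference between the miR-129-3p and control arrays (horizontal axis), for all 12754 measured genes (grey bars) and the 34 measured IFT and BBSome genes (blue line), with dotted lines at 1.5-fold. The members keep to the centre of the grey distribution, with ARL6 alone at the right.

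The only spread these arrays hold is that between probe sets of the same gene. Over 6179 genes with several measured probe sets the pooled SD of the log2 difference was 0.37, which leaves out the spread between cultures. Of the 34 members 14 (41.2%) differed by more than this, as did 44.7% of all genes. Among the members themselves the probe sets lay closer, with a pooled SD of 0.24. A second measured probe set existed for 23 members. Of their 28 further probe sets 21 had the sign of the one used, which is the one with the highest mean log2 signal. The share of the same sign over all genes was not computed.

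The IFT-B genes had the smallest typical difference of the 3 groups, with a median size regardless of sign of 0.15, beside 0.20 for IFT-A with TULP3 and 0.35 for the BBSome and partners. Past 1.5-fold were 2 of 16 genes, both higher, beside 17.3% of all genes higher and 10.8% lower. The signed median of the IFT-B genes was -0.03. The core, which holds the tubulin-binding pair IFT81 and IFT74 and the central subunit IFT88, had a median of -0.07 over 10 genes. IFT88, which when lost abolishes cilia, read 716 in control and 718 with the miR-129-3p oligo, a difference of 0.00. IFT81 read 1053 and 992 (-0.08). Its partner IFT74 read 247 and 362, a difference of 0.52, and its other probe set gave 0.55. The tubulin-binding partners thus did not read alike, though both stayed within 1.5-fold.

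IFT52, which anchors the core, read 728 and 669 (-0.12), and IFT46, which binds IFT52, read 383 and 368 (-0.06). The small GTPase IFT27 read 399 and 365 (-0.12). Its binding partner HSPB11 read 2520 and 2586 (0.04), with its other probe sets at -0.10 and 0.40. IFT22, another small GTPase of the core, was lower on both probe sets, at 1191 and 912 (-0.38) on the one used and -0.21 on the other. None of these 5 reached 1.5-fold in either direction.

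TTC30A and TTC30B encode the 2 human forms of IFT70, a core subunit that wraps around IFT52, and their signals went opposite ways. TTC30A read 146 in control and 109 with the miR-129-3p oligo (-0.38) on its 1 probe set. TTC30B read 152 and 248, a difference of 0.65 (1.57-fold), and 68.3 and 124 (0.73) on its other probe set. Both probe sets of TTC30B were therefore above control and the single one of TTC30A below it. TTC30B came under 1.5-fold after quantile normalization of the arrays (0.55) and with 64 added in place of 16 (0.53). The genes are near-identical copies, and how far their probe sets share transcripts was not tested.

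The peripheral IFT-B subunits, which bind the motor and link to cargo, had a median of 0.00 over 6 genes, with IFT57 standing highest. IFT57 read 1093 in the control and 2095 with the miR-129-3p oligo, a difference of 0.93 (1.90-fold). Its other measured probe set read 195 and 334 (0.73), and one under the limit of 100 read 41.2 and 68.9 (0.57). All 3 probe sets of IFT57 were higher with the miR-129-3p oligo. IFT20, which also acts at the Golgi in sorting ciliary membrane proteins, read 1506 and 1501 (0.00).

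IFT172, the largest IFT-B subunit, read 656 and 660 (0.01). IFT80, mutated in Jeune syndrome, read 1351 and 1160.5 (-0.22) and -0.27 on its other measured probe set. TRAF3IP1, which encodes the tubulin-binding subunit IFT54, read 390 and 267, at -0.52 the lowest IFT-B value, but its other probe set gave -0.16. Quantile normalization took TRAF3IP1 past 1.5-fold (-0.62). CLUAP1, or IFT38, read 511 and 579 (0.18) and changed sign on its other measured probe set (-0.14). Apart from IFT57, no peripheral subunit reached 1.5-fold on the signals as deposited.

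**Figure D2:**
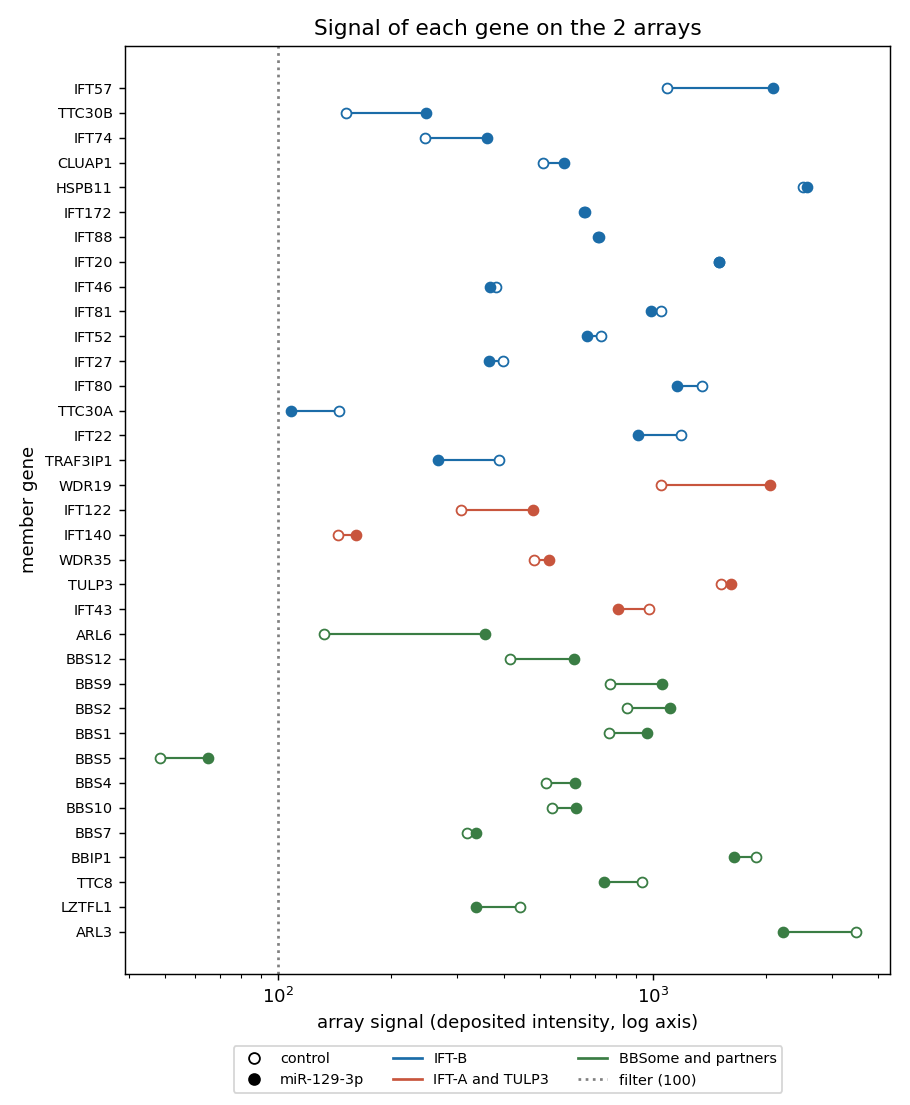
Deposited array signal (horizontal log axis) of each of the 35 genes with a probe set, in control (open points) and with miR-129-3p (filled points), 1 array each, coloured by complex and ordered by difference. Long bars to the right mark IFT57, WDR19 and ARL6, and the bar to the left at the bottom is ARL3, while IFT88, IFT172 and IFT20 show overlapping points.

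In the IFT-A complex 2 of 5 measured subunits passed 1.5-fold, both higher, and the median with TULP3 was 0.14 over 6 genes, beside 17.3% of all genes higher, 10.8% lower and a median of 0.03. WDR19, the core subunit IFT144, read 1054 in control and 2056 with the miR-129-3p oligo, a difference of 0.95 (1.94-fold). A second probe set read 115 and 220 (0.85), and one near the floor read 17.3 and 18.2. Both measured probe sets of WDR19 thus stood past 1.5-fold. IFT122, also of the core, read 309 and 479, a difference of 0.61 (1.53-fold), on one probe set and 120 and 104 (-0.18) on another. The value of IFT122 therefore rests on 1 probe set, and the used one also came under 1.5-fold after subtraction of a trend on signal level (0.55), after quantile normalization (0.52) and with 64 added in place of 16 (0.54).

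The remaining IFT-A genes lay within 1.5-fold. IFT140, the third core subunit, read 145 and 162 (0.14), with -0.06 on its other measured probe set. WDR35, the peripheral subunit IFT121, read 483 and 530.3 (0.13) and 128.9 and 187 (0.49). IFT43, its small partner, was lower on all 3 probe sets, between -0.27 and -0.14. TULP3, the adaptor by which IFT-A brings receptors such as GPR161 into the cilium, read 1525 and 1619 (0.09), and its other probe set gave 0.04.

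The BBSome and its partners had the highest median of the 3 groups, 0.23 over 12 measured genes. In this group 1 gene was at least 1.5-fold higher and 1 lower, both small GTPases. Of all genes 17.3% were higher, 10.8% lower and 71.9% within 1.5-fold. Of the 7 measured subunits of the BBSome itself 5 were above 0 and 2 below, and 0 of 7 reached 1.5-fold on the probe set used. BBS9, a scaffold subunit, read 767 and 1060.1 (0.46). Its other measured probe sets read 216 and 314 (0.51) and 116.0 and 248.1 (0.9999), the last past 1.5-fold. BBS2 read 855 and 1110 (0.37), and BBS4 read 520 and 621 (0.25) with 0.28 on its second probe set. BBS9 was thus the subunit whose measured probe sets were all furthest above control.

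BBS7, the partner of BBS2 in the core, read 319 and 337 (0.08) and 0.32 on its second probe set. BBS1, which contacts ARL6, read 765 and 969 (0.33) on one probe set and 109 and 86.9 (-0.28) on another, so its direction is not settled. TTC8 (BBS8) was lower, at 934 and 740.1 (-0.33). BBIP1 (BBS18), the smallest subunit, read 1888 and 1644 (-0.20), and its 3 other measured probe sets ran from -0.32 to 0.16.

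The chaperonin-like proteins BBS10 and BBS12, which assemble the BBSome core, were both above control: BBS10 at 537 and 623 (0.21) and BBS12 at 416 and 616 (0.55), the latter just under 1.5-fold. Each had 1 probe set.

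The small GTPases gave the highest and lowest differences of all members. ARL6 (BBS3) recruits the BBSome to membranes in its GTP-bound form. It read 133 in control and 356 with the miR-129-3p oligo, a difference of 1.32 (2.50-fold), and its other probe set read 109 and 181 (0.66). Both probe sets of ARL6 were past 1.5-fold, although they lay further apart from each other than most. ARL3 releases lipidated cargo inside the cilium. It read 3480 and 2227, a difference of -0.64 (1.56-fold lower), while its other measured probe set read 160.2 and 140.1 (-0.17). ARL3 did not stay past 1.5-fold when its probe sets were averaged (-0.35). LZTFL1, which holds the BBSome back from the cilium, read 443 and 338 (-0.37), with -0.07 on its other measured probe set.

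**Figure D3:**
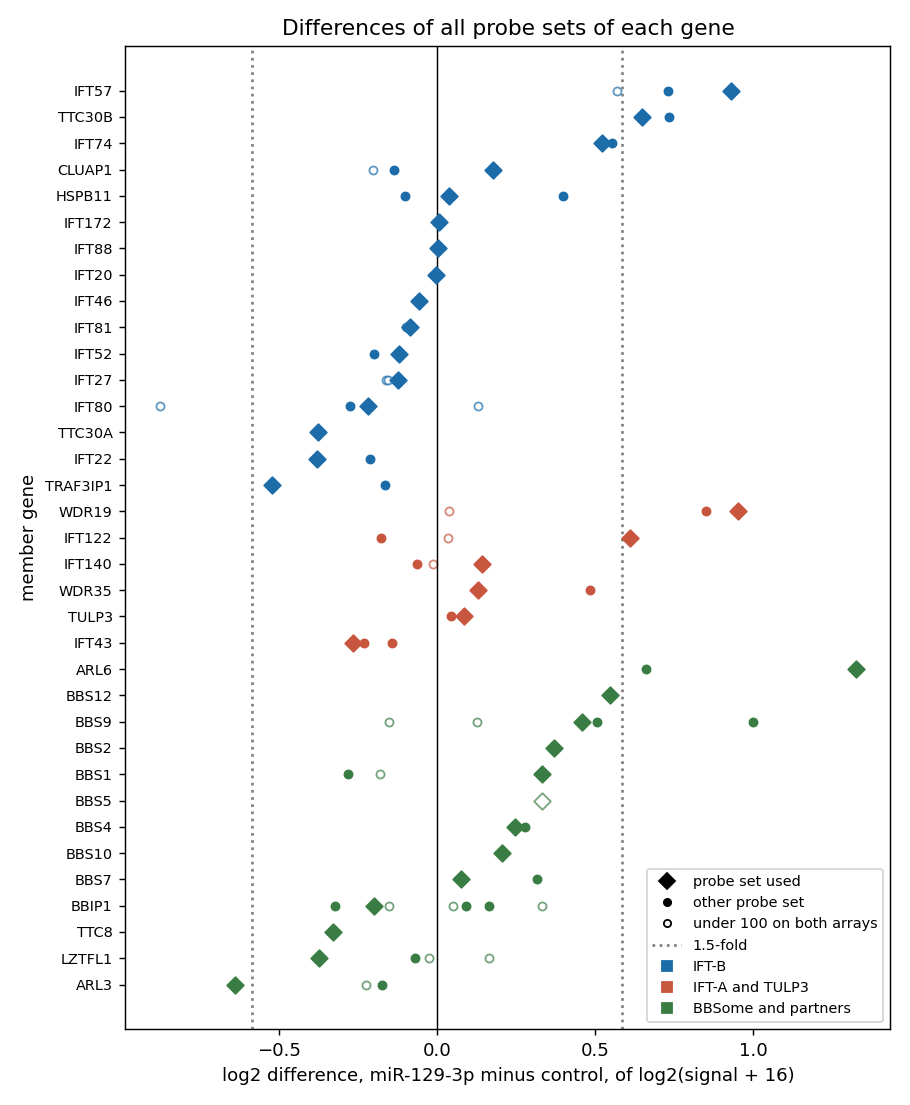
Log2 difference between the miR-129-3p and control arrays (horizontal axis) for all 82 probe sets of the members, 1 gene a row, with diamonds for the probe set used, open symbols for probe sets under 100 on both arrays and dotted lines at 1.5-fold. IFT57, WDR19, TTC30B and ARL6 have all their measured probe sets beyond the right line, whereas IFT122 and BBS1 have them on both sides of 0. The other probe set of TTC30B reached 100 on the miR-129-3p array only.

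All 6 members past 1.5-fold had several measured probe sets. Of these members 4 had every measured probe set past it in the same direction: ARL6, WDR19, IFT57 and TTC30B. For TTC30B the other probe set was measured only through the higher array, so the filter favoured its agreement. How often all measured probe sets pass together among all genes past 1.5-fold was not computed. A measured probe set of the opposite sign to the one used was seen for 6 members, of the 23 with several. That share was not computed over all genes either. The 6 members are listed next. These were HSPB11, CLUAP1, IFT140, IFT122, BBS1 and BBIP1, and for IFT122 and BBS1 the gap was over 0.58.

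Promoter sequence was then set beside these values, since RFX transcription factors bind an X-box motif in many ciliary genes. RefSeq windows on GRCh38.p14, from 250 bases before to 50 after a gene's start, were found for 33 of the 36 members, and not for IFT22, WDR35 and BBS9. The X-box arm GTTGCC, searched on both strands, was in a window of 17 of 33 members (51.5%) and of 14.6% of all 27305 genes with a window. Counted by window, it was in 46.3% of the members' windows and 12.2% of all windows. GTTGCC followed after any 2 bases by GG, the start of the mirror arm, was in 7 members (21.2%) and 2.91% of genes; every such match also counts as GTTGCC. The open form, which is GT, CC, GG and AC with any 2 bases between each pair of letters and the next, reads the same on both strands and can overlap the others. It was in 5 members (15.2%) and 2.51% of genes: ARL6, BBIP1, IFT57, TTC30A and WDR19. The full X-box consensus was in 2 members, TTC30A and TTC30B (6.06%), and 0.901% of genes. These spellings are 4 of 16 searched, and they were picked with the members' differences known. A match describes letters only, and no binding was measured.

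The windows are shown for the members past 1.5-fold that hold a match, for TTC30A as the copy of TTC30B, and for BBIP1 as a member with the open form that did not differ. Each is a stretch of 60 bases before an annotated start, on the gene's strand, with 1 match in capitals. The full consensus of TTC30B runs across the start and that of TTC30A lies after it, so neither is shown whole.
ARL6 (chr3:97764698-97764757, plus strand): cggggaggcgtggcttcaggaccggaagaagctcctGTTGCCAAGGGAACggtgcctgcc
IFT57 (chr3:108222425-108222484, minus strand): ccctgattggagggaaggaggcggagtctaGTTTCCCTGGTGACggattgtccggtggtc
WDR19 (chr4:39182444-39182503, plus strand): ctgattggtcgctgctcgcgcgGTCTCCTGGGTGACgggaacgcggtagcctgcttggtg
IFT122 (chr3:129440164-129440223, plus strand): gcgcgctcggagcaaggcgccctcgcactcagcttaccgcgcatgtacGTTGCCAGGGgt
TTC30B (chr2:177552797-177552856, minus strand): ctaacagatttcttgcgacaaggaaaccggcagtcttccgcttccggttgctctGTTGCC
TTC30A (chr2:177618743-177618802, minus strand): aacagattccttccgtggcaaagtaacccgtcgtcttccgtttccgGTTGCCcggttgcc
BBIP1 (chr10:110919181-110919240, minus strand): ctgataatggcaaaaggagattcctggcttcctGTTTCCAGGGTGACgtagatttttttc

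The differences were then set out by motif. The 16 measured members with GTTGCC had a median difference of 0.06 and included 3 at least 1.5-fold higher, and the 15 without it had a median of 0.01 and included 2. TTC30A and TTC30B both hold the full consensus and went opposite ways. TTC30A did so on 1 probe set, by about the pooled SD between probe sets (0.37). Among the 5 measured members with the open form, 3 were at least 1.5-fold higher (ARL6, WDR19 and IFT57), while BBIP1 (-0.20) and TTC30A (-0.38) were not, and the median was 0.93. Among the 26 without it 2 were higher, with a median of 0.02. As this form was picked with these differences known, the contrast is a description of 5 genes. Of all genes measured 17.3% were at least 1.5-fold higher, and their median difference was 0.03. The differences of all genes that hold each motif were not computed. ARL3 held none of these matches.

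The measured RFX genes themselves lay within 1.5-fold. Of 8 RFX and FOXJ1 factors 4 were measured and 0 passed 1.5-fold, with a median of 0.17. Of all genes 71.9% lay within 1.5-fold, with a median of 0.03. RFX3, an activator of ciliary genes, read 160.0 and 208 (0.35), and RFX7 read 1144 and 958 (-0.25). FOXJ1, the regulator of motile cilia, was under the limit at 54.5 and 50.8. So were RFX2 at 72.3 and 95.8 (0.34), RFX6 at 25.9 and 30.9 (0.16), and RFX4. RFX4 was just under it in control, at 98.3 and 48.5 (-0.83).

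Motor genes that pull the trains were found past 1.5-fold in both directions, as were 17.3% (higher) and 10.8% (lower) of all genes. Among 14 measured genes of 16, 3 stood at least 1.5-fold higher and 1 lower, with a median of 0.01. The kinesin-2 genes KIF3A, KIF3B and KIF3C and the adaptor KIFAP3 lay within 1.5-fold, with KIF3A at 625 and 665 (0.09) and KIFAP3 at 1282 and 1366 (0.09). Among dynein-2 genes, the intermediate chain DYNC2I1 read 557 and 975 (0.79; 0.41 on its other probe set), and the light intermediate chain DYNC2LI1 read 502 and 798 (0.65; 0.07 to 0.51 on 3 others). The other intermediate chain, DYNC2I2, read 724 and 353 (-1.002) on its 1 measured probe set. The paired intermediate chains of retrograde transport therefore stood at opposite ends of the list.

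Genes that serve the BBSome and the ciliary membrane were counted in the same way, beside the same 17.3% of all genes higher and 10.8% lower. In the BBS chaperonin list 1 of 6 measured genes was at least 1.5-fold higher and 0 lower. That gene, MKKS (BBS6), which works with BBS10 and BBS12, read 700 and 1229 (0.80), but its other measured probe set gave -1.50. The 5 CCT subunits lay between -0.25 (CCT2) and -0.01. Among 19 measured genes of ciliary membrane traffic, 1.5-fold was passed upward by 2 and downward by 1 (median 0.11). That list also counts the IFT-B gene IFT56 (-0.04), which is not among the members. EHD1, which shapes the ciliary vesicle, read 688 and 1341 (0.95; 0.50 to 0.92 on 4 others), and CEP19, which brings IFT-B to the ciliary base, read 184 and 308 (0.69; 0.61 on its other). UNC119B, whose cargo ARL3 releases, read 2096 and 1385 (-0.59). On the same list UNC119 (0.14), RP2 (0.41) and PDE6D (0.54) were above control. RAB23 (-0.58) lay just inside the limit. Of 7 measured ciliary receptors and channels 1 was higher, the Hedgehog receptor PTCH1 at 117 and 237 (0.92), and GPR161, a cargo of TULP3, gave -0.20.

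**Figure D4:**
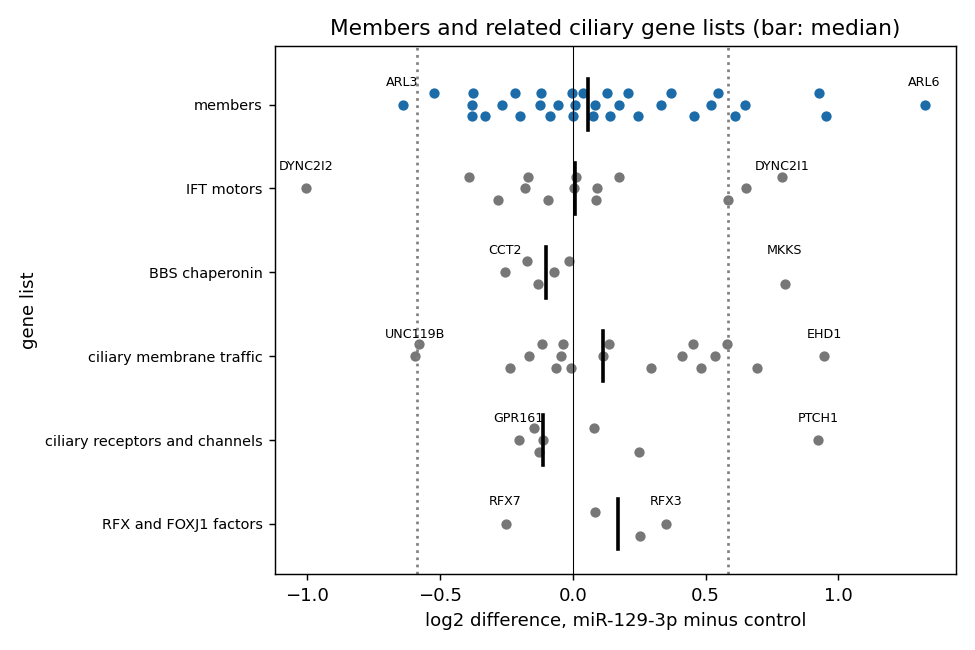
Log2 difference between the miR-129-3p and control arrays (horizontal axis) of measured genes in 6 lists (rows): the IFT and BBSome members in blue and 5 related ciliary lists in grey, 1 point a gene, with black bars at the medians and dotted lines at 1.5-fold. All medians lie between -0.11 and 0.17, and ARL6 is the point furthest to the right.

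The 2 arrays were alike in scale, with medians of 96.5 in control and 98.0 with the miR-129-3p oligo over 54613 probe sets. The label of a retinal pigment epithelial line was set against 8 markers: MITF, OTX2 and PMEL were measured, and 5, among them RPE65 at 6.44 and 6.66, were under 100 on both arrays. MITF read 2470.3 and 1020.2 (-1.26), OTX2 read 1452 and 1625 (0.16) and PMEL read 114 and 229 (0.92). Of 5 simple epithelial markers 3 were measured, all below control, from KRT18 at 5787 and 2972 (-0.96) to CDH1 at 103 and 89.7 (-0.17). All 4 mesenchymal or stromal markers were measured and below control. They ran from COL1A1 at 7404 and 3143 (-1.23; -3.34 to -0.27 on 4 others) to FN1 at 20085 and 18897 (-0.09; -1.49 to -0.09 on 6 others). Of 6 multiciliated cell markers with a probe set, the highest signal was of a different gene on each array. In control it was DNAH5, at 112 and 49.6 with the miR-129-3p oligo (-0.97). With the oligo it was CCDC40, at 103.3 in control and 110.4 (0.08; -0.38 on its other measured probe set). FOXJ1 was under 100, and the summed signal of the 6 markers was 435 and 350.2. Blood cell markers reached 162 and 149, summing to 322 and 336 over 4 genes, and photoreceptor markers 75.9 and 70.4, summing to 145 and 149.6 over 3. Markers of dividing cells moved with the groups: all 8 stood at least 1.5-fold below control with the miR-129-3p oligo (median -1.69), between -2.41 for AURKA, a kinase that also acts in cilium disassembly, and -0.78 for PLK1, and their summed signal was 8287 and 2442. Their part in the members' differences was not tested. In RNA from whole cultures, fewer cells of a type and less RNA per cell cannot be told apart.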

How the data were processed

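Per the labels, RNA of 2 hTERT-RPE1 cultures was hybridised to 1 Affymetrix array each. The authors deposited 1 intensity per probe set and array on a linear scale from 1 to 20822. Per the submitters' processing notes, MAS5 and RMA were involved, with no version or role stated, and scaling and background correction are not given in the sources used here; a floor or compression upstream would affect dim genes most. Of 54613 probe sets, 41091 name 1 gene symbol, 1801 name several and 11721 are not listed in the annotation table; gene IDs of 41037 matched RefSeq genes of GRCh38.p14. Each of 19775 genes was represented by the probe set with the highest mean log2(signal + 16), and genes with 100 or more on either array were kept. With 1 array a group no test was made. The number of arrays limits the precision. Members, lists and motifs were chosen with earlier results of these data known. Genes were named in full if past 1.5-fold, if their probe sets disagreed in sign or by over 0.58, or as examples of each group; of each list up to 2 at each end, with extra names chosen after their values were seen. Code was tested on simulated data. Alternatives concerned scaling, filter, probe sets, constant and fold limit. Seed matches in transcripts were not analysed here. The software was Python 3.11.15 with pandas 2.3.3, numpy 2.4.6, matplotlib 3.10.9 and statsmodels 0.14.6.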

Additional observations from a re-analysis of the deposited data

How the results depend on the processing

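The count of members at least 1.5-fold higher, 5, was 3 after quantile normalization, 3 without probe sets ending in _x_at or _s_at (25 members left), 3 with a constant of 64 in place of 16, and 1 at a limit of 2-fold. The count lower, 1, was 2 after quantile normalization, 0 with the mean of all probe sets and 0 at 2-fold, where the shares of all genes were 7.83% higher and 4.56% lower. ARL6 alone was higher at 2-fold, on the probe set used (1.32). The mean of its probe sets was 0.99, just under 2-fold. IFT122 turned to -0.18 without the _x_at and _s_at probe sets, which leaves its other probe set. Over 12 alternatives the members' median lay between -0.01 and 0.09 and that of the IFT-B genes between -0.11 and -0.03. Over 11 it lay between 0.06 and 0.15 for IFT-A and TULP3, and between 0.14 and 0.25 for the BBSome and partners. Of 362 pairs of a member and an alternative, 359 moved the difference by less than the probe set SD of 0.37. Many of these pairs could not move: changing the filter, or setting signals under 100 to 100, left every member's difference as it was. The remaining 3 pairs came from the alternatives that change the probe sets. They were IFT122 and BBS1 with the mean of all probe sets, and IFT122 without the _x_at and _s_at ones. Matching by the listed symbol only, chosen after seeing the data, left out TTC30B among the higher genes. No paired analysis was possible because each group held 1 array, and no replicate could be left out. Signals near or under 100 limit what can be said of BBS5. The limit also covers dim members above 100. In control ARL6 (133), IFT140 (145), TTC30A (146) and TTC30B (152) read under the blood cell marker HBB (162). The difference of ARL6 was 1.10 with 64 added and 1.42 with 1 added.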
